A study of Arabidopsis thaliana with 7 samples.

Results

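The UGT73 glucosyltransferase genes of Arabidopsis thaliana were followed in leaves sprayed with salicylic acid (SA). A gene was taken as a member where its symbol starts with UGT73 and a probe set of the array names that gene alone. This gave 7 genes of 13513 probe sets that name 1 gene: UGT73B1 (AT4G34138), UGT73B4 (AT2G15490), UGT73B5 (AT2G15480), UGT73C1 (AT2G36750), UGT73C2 (AT2G36760), UGT73C7 (AT3G53160) and UGT73D1 (AT3G53150). Each had 1 probe set, that is, 1 group of short probes that reads its transcript. The study used wild-type Col-0 plants aged 3.5 weeks in a 12 h photoperiod, and 7 Affymetrix ATH1 arrays. There were 4 SA arrays, from plants given 0.5 mM SA in 0.02% Silwet, a wetting agent, with 1 array each at 3, 6, 12 and 24 h. There were 3 control arrays, 1 of untreated plants at 0 h and 1 each of plants given 0.02% Silwet alone at 6 h and 12 h. Mature leaves of a few plants were pooled for each sample, so every condition and time rests on a single pool and a single array.

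Family 1 glucosyltransferases, the UGTs, move glucose from UDP-glucose onto small molecules such as hormones, flavonoids and xenobiotics, which makes them more soluble and often inactive. SA itself is a substrate of UGTs of other groups, such as UGT74F1 and UGT76B1. Enzymes of the UGT73B group act on flavonols in vitro, and UGT73B5 is needed for full resistance to Pseudomonas syringae. UGT73B4, UGT73B5 and UGT73C1 glucosylate breakdown products of the explosive TNT, and UGT73C1 also acts on cytokinins. Some UGT73 genes are known to answer to xenobiotics and oxidative stress through TGA transcription factors.

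All levels are log2 values after RMA (robust multi-array average), so 1 unit is a 2-fold difference, and dim probe sets are compressed. The median over all tested probe sets and arrays was 6.59. The 10 leaf mesophyll markers matched by symbol had means between 10.25 and 14.02 and a summed level (log2 of the sum of unlogged values) of 16.06 to 16.70 in SA and 16.52 to 16.88 in control arrays, and of 14 root markers the 2 matched by symbol, EXPA7 and PYK10, had means of 6.09 and 4.54. Their summed level was 6.32 to 6.45 in SA and 6.62 to 6.79 in control arrays, without overlap. Of all 13513 tested probe sets, 1272 had every SA array below every control array. The excess of the 3′ over the 5′ GAPDH control probe sets, a measure of RNA integrity, was 0.57 to 1.49 in SA and 0.85 to 1.78 in control arrays. For actin it was 1.72 to 2.48 in SA and 1.83 to 2.39 in control arrays. The part of these values in the results was not tested. In whole leaves, fewer cells of a type and less RNA per cell cannot be told apart.

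Across the SA arrays the genes followed several time courses. UGT73B4, UGT73B5 and UGT73C1 were highest at 3 h with SA and close to their control levels by 24 h. UGT73D1 held a plateau from 3 h to 12 h and was still above every control array at 24 h. UGT73C7 was highest at 12 h. UGT73B1 was above its control at 3 h and 6 h and below it at 12 h and 24 h, and UGT73C2 stayed dim on every array.

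**Figure D1:**
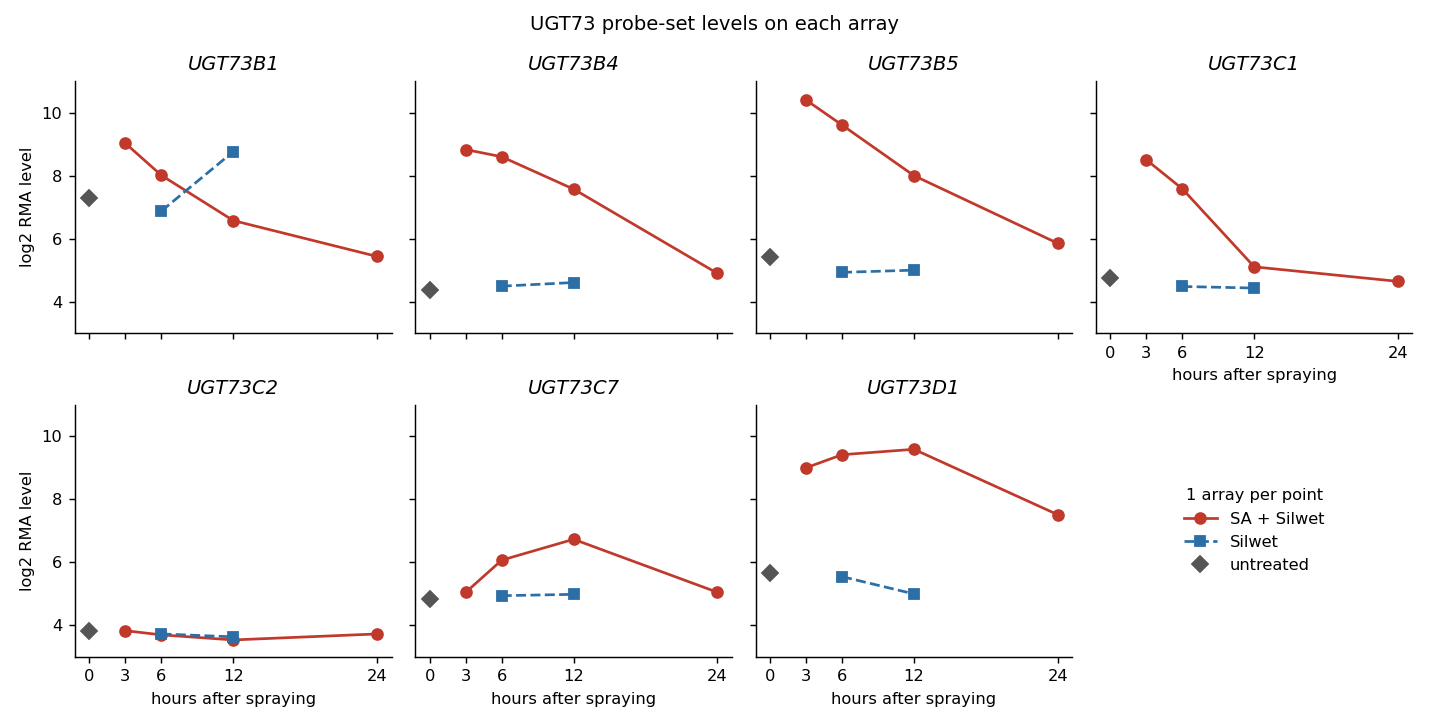
Level of each UGT73 gene (log2 RMA) against hours after spraying, with 1 array per point: SA + Silwet in red, Silwet in blue and untreated in grey at 0 h. UGT73B4, UGT73B5 and UGT73C1 are highest at 3 h with SA, UGT73D1 is highest at 12 h (9.58), and the UGT73B1 lines cross between 6 h and 12 h.

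UGT73D1 rose with SA. Its levels were 8.99, 9.41, 9.58 and 7.51 with SA at 3, 6, 12 and 24 h, against 5.66 in untreated leaves and 5.54 and 4.99 with Silwet at 6 h and 12 h. Every SA array lay above every control array, and the lowest SA array was the one at 24 h. In a test of the SA arrays against the control arrays, fitted in limma over all 13513 probe sets, the means were 8.87 ± 0.94 with SA (SD, n = 4) and 5.40 ± 0.36 in control (SD, n = 3). The difference was 3.47 (SE 0.50, 95% interval 2.31 to 4.63, 11.1-fold, limma adjusted p = 0.0271). Its error comes from arrays of different hours within SA and, among the controls, of different hours and of sprayed and unsprayed leaves. Variation between pools of plants is mixed into this error and cannot be told apart from it. Without the untreated, the Silwet 6 h, the Silwet 12 h, the SA 3 h, the SA 6 h or the SA 12 h array, the difference lay between 3.24 and 3.60 and was not called (limma adjusted p between 0.0607 and 0.117). Without SA 24 h it was 3.93 and called (limma adjusted p = 0.00350). That array is the lowest SA array, so leaving it out raises the difference by construction. Blocking on clock time gave 3.43 (limma adjusted p = 0.0639). SA 3 h is alone in its block there, so this estimate is the same as without the SA 3 h array. Over the 4 arrays of the matched times, 6 h and 12 h, with time as a block the difference was 4.23 (limma adjusted p = 0.0412). So few arrays leave little from which to estimate the error.

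UGT73D1 was the 1 member called of 7. Over all tested probe sets 1.33% were called in either direction and 1.03% as higher with SA. UGT73B4, UGT73B5 and UGT73C7 also had every SA array above every control array, which makes 4 of 7, where 8.67% of all tested probe sets showed this. The margins of these genes were small. For UGT73B4 the lowest SA array had 4.90 and the highest control array 4.61. These values were 5.85 and 5.41 for UGT73B5 and 5.04 and 4.98 for UGT73C7.

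UGT73B5, which is tied to redox state during bacterial infection, had levels of 10.40, 9.61, 8.00 and 5.85 with SA at 3, 6, 12 and 24 h. Its control levels were 5.41 in untreated leaves and 4.93 and 5.00 with Silwet at 6 h and 12 h. SA arrays thus spanned 4.54 units and control arrays 0.48 units. UGT73B4, its neighbour on chromosome 2, had 8.83, 8.60, 7.57 and 4.90 with SA, against 4.38 in untreated leaves and 4.50 and 4.61 with Silwet. For both genes the levels stepped down at each later time, and the 24 h array was the SA array nearest to the control range. The difference between SA and control arrays was 3.35 for UGT73B5 (SE 0.99, 95% interval 1.04 to 5.66) and 2.98 for UGT73B4 (SE 0.88, 95% interval 0.92 to 5.04). Neither passed over all probe sets (limma adjusted p = 0.125 for each; the intervals are not adjusted). Without SA 24 h the differences were 4.22 and 3.84 and both passed (limma adjusted p = 0.0186 for UGT73B5 and adjusted p = 0.00564 for UGT73B4). In that fit 681 of all 13513 probe sets passed, against 180 with all arrays. SA 24 h was the lowest SA array of both genes, so leaving it out raises their differences by construction. With any other array left out neither gene passed (limma adjusted p between 0.202 and 0.288).

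The RefSeq gene model of UGT73B5 runs over that of UGT73B4, and the genes are close relatives. Transcripts or probes shared between them were not tested here, so the separate size of each is uncertain. Their levels over the 7 arrays correlated with Pearson's r of 0.986, a description over arrays that both share.

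UGT73C1, of the group that includes cytokinin and TNT glucosyltransferases, was high with SA at the early times. Its levels were 8.50, 7.58, 5.11 and 4.65 with SA at 3, 6, 12 and 24 h, against 4.75 in untreated leaves and 4.48 and 4.44 with Silwet at 6 h and 12 h. The arrays at 3 h and 6 h stood clear of all control arrays, the one at 12 h was above them by a small margin, and the one at 24 h lay within the control range. The difference between SA and control arrays was 1.90 (SE 0.92, 95% interval -0.24 to 4.05, limma adjusted p = 0.292). UGT73C2, the next gene along chromosome 2, showed none of this. Its levels were 3.83, 3.70, 3.53 and 3.72 with SA, against 3.83 in untreated leaves and 3.72 and 3.63 with Silwet. It lay between the 3.43 and 6.96 percentile of its array in all 7 cases, and its difference was -0.034 (SE 0.075, 95% interval -0.21 to 0.14, limma adjusted p = 0.840). At so dim a level a small difference would be compressed.

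UGT73C7, which acts on hydroxycinnamic acids and other phenylpropanoids, had levels of 5.04, 6.06, 6.73 and 5.04 with SA at 3, 6, 12 and 24 h. Control levels were 4.84 in untreated leaves and 4.94 and 4.98 with Silwet at 6 h and 12 h. The control arrays spanned 0.14 units, and the SA arrays at 3 h and 24 h lay just above them. The difference between SA and control arrays was 0.80 (SE 0.41, 95% interval -0.15 to 1.75, limma adjusted p = 0.319). Its neighbour on chromosome 3 is UGT73D1, which was high from 3 h on, and the levels of this pair correlated with r = 0.749 over the 7 arrays.

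UGT73B1 showed a different order. Its levels were 9.02, 8.01, 6.57 and 5.44 with SA at 3, 6, 12 and 24 h, against 7.29 in untreated leaves and 6.88 and 8.76 with Silwet at 6 h and 12 h. The SA levels stepped down at each later time and ended below every control array, while the Silwet array at 12 h was the highest control. The SA and control ranges overlapped, and the difference between the arms was -0.38 (SE 0.87, 95% interval -2.42 to 1.66, limma adjusted p = 0.843). Its sign turned without Silwet 12 h (0.18) and without SA 24 h (0.23). A small protein-coding gene, AT4G34139, overlaps UGT73B1 in RefSeq, and which of them the probes read was not tested.

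The effect of SA against its own carrier was taken from pairs of arrays sampled at the same hour, which have no replicate and so no p-value. At 6 h the SA array exceeded the Silwet array by 4.67 for UGT73B5 (25.5-fold), 4.10 for UGT73B4 (17.2-fold), 3.87 for UGT73D1 (14.6-fold) and 3.10 for UGT73C1 (8.56-fold). UGT73B1 and UGT73C7 were higher by 1.13 each, and UGT73C2 differed by -0.029. Thus 6 of 7 genes were at least 2-fold higher, against 8.65% of all tested probe sets. The median difference of all 7 genes was 3.10, against -0.05 over all probe sets.

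At 12 h UGT73D1 led with 4.59 (24.0-fold), followed by UGT73B5 with 3.00, UGT73B4 with 2.96 and UGT73C7 with 1.75. UGT73C1 was 0.67 higher and UGT73C2 differed by -0.098. UGT73B1 was lower with SA (-2.19). Here 4 of 7 were at least 2-fold higher, against 5.98% of all probe sets, and 1 of 7 at least 2-fold lower, against 6.01%. Being past 2-fold higher at 6 h and past 2-fold lower at 12 h, as UGT73B1 was, applied to 5 of 13513 probe sets (0.037%). The pattern was taken from UGT73B1 itself, which is among the 5, and rests on single arrays. The count is therefore a description and no support for the reversal. Both arrays of the 12 h pair differed from those at 6 h for UGT73B1: SA at 12 h minus SA at 6 h was -1.43, and Silwet at 12 h minus Silwet at 6 h was 1.89. At 6 h the GAPDH 3′ excess was 0.62 with SA and 1.78 with Silwet, and at 12 h it was 1.49 with SA and 1.41 with Silwet. For actin the excess was 2.48 with SA and 2.39 with Silwet at 6 h, and 2.44 and 1.84 at 12 h. The part of these values in the differences was not tested.

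**Figure D2:**
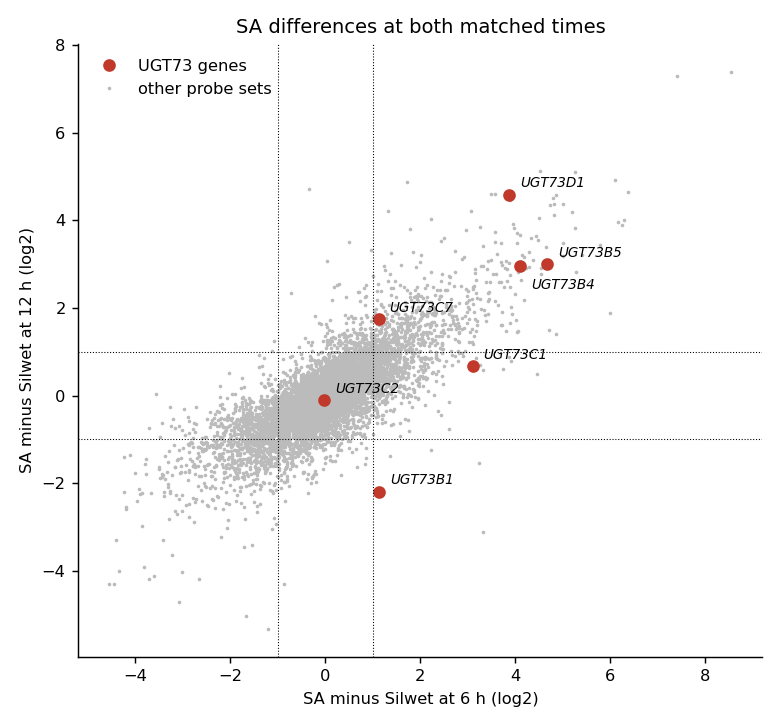
SA minus Silwet at 6 h (horizontal) against the same at 12 h (vertical), both in log2 units, for all tested probe sets (grey) and the UGT73 genes (red), with dotted lines at 2-fold. UGT73B1 lies at 1.13 and -2.19, in the lower right, while UGT73D1, UGT73B5 and UGT73B4 lie in the upper right.

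SA at 3 h and 24 h had no Silwet array of its own hour and was set against untreated leaves. Spraying, and at 3 h also the hour of harvest, therefore cannot be told apart from SA here. At 3 h UGT73B5 was 4.98 higher (31.7-fold), UGT73B4 4.44, UGT73C1 3.75, UGT73D1 3.34 and UGT73B1 1.74, while UGT73C7 differed by 0.20 and UGT73C2 by -0.0024. This is 5 of 7 at least 2-fold higher, against 7.2% of all probe sets. At 24 h UGT73D1 was 1.85 higher (3.60-fold), UGT73B4 0.52, UGT73B5 0.44 and UGT73C7 0.20, and UGT73C1 and UGT73C2 differed by -0.10 and -0.11. UGT73B1 was lower (-1.85). Thus 1 of 7 was at least 2-fold higher, against 3.51% of all probe sets, and 1 of 7 at least 2-fold lower, against 3.68%. Set against the mean of both Silwet arrays in place of untreated leaves, the difference at 24 h was 2.24 for UGT73D1, -2.38 for UGT73B1 and 0.89 for UGT73B5. With that change of baseline the small differences of UGT73C1 (0.19) and UGT73C2 (0.046) at 24 h and of UGT73C2 at 3 h (0.15) turned positive.

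The step between SA at 12 h and SA at 24 h was downward for most of the genes. It was -2.67 for UGT73B4, -2.15 for UGT73B5, -2.07 for UGT73D1, -1.68 for UGT73C7 and -1.14 for UGT73B1. These 5 of 7 were at least 2-fold lower at 24 h, against 4.3% of all probe sets. That share covers all probe sets, raised at 12 h or not. The arrays of this step differ in time of day as well as in time since SA, which cannot be told apart. UGT73C1 had reached its low level by 12 h and differed by -0.46.

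With the spray alone, 1 of the 7 genes passed 2-fold. Silwet at 6 h minus untreated lay between -0.48 (UGT73B5) and 0.11 (UGT73B4), so 0 of 7 were at least 2-fold higher, against 3.75% of all probe sets. At 12 h UGT73B1 was 1.48 higher with Silwet than in untreated leaves, which makes 1 of 7 against 4.71%. The other members lay between -0.66 (UGT73D1) and 0.23 (UGT73B4). These single arrays also differ from the untreated one in time of day.

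**Figure D3:**
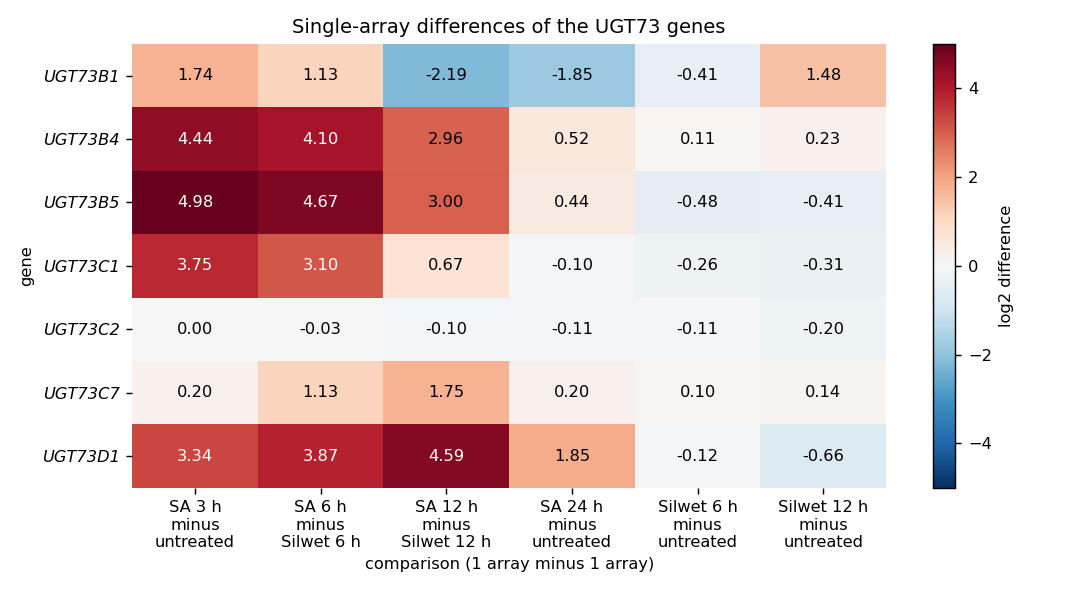
Log2 difference between single arrays for each UGT73 gene (rows) in 6 comparisons (columns), red for higher and blue for lower in the array named first. UGT73B5 has the highest value at 3 h (4.98) and UGT73D1 at 12 h (4.59), and the Silwet columns are pale but for UGT73B1 at 12 h (1.48).

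The levels of UGT73B5 and UGT73C1 correlated with r = 0.940 over the 7 arrays, those of UGT73B4 and UGT73D1 with r = 0.907, and those of the adjacent genes UGT73C1 and UGT73C2 with r = 0.339. Among all probe sets with an SD of at least 0.5 over the 7 arrays, the profiles nearest to UGT73B4 were AT2G37980 (r = 0.999), AT5G44570 (r = 0.997) and AT5G27760 (r = 0.993). Nearest to UGT73B5 were AT1G52200 (r = 0.997), AT1G28190 (r = 0.997) and AT1G62840 (r = 0.996). Nearest to UGT73C1 were AT2G20110 (r = 0.993), AT3G44190 (r = 0.990) and AT1G25370 (r = 0.989). For UGT73D1 they were AT5G53330 (r = 0.996), AT2G37110 (r = 0.994) and AT5G25820 (r = 0.989). Of these AT5G25820 passed between SA and control arrays (1.60, limma adjusted p = 0.0291). It was picked for its likeness to UGT73D1 over the same arrays, so this is no separate support. For UGT73C7 they were AT3G16330 (r = 0.992), NET2D (r = 0.989), of a family of actin-binding proteins, and AT5G48290 (r = 0.985). UGT73B1 had no neighbour as near: AT4G15140 (r = 0.918), HEMA2 (r = 0.916), which encodes a glutamyl-tRNA reductase of tetrapyrrole synthesis, and AT3G21650 (r = 0.912). UGT73C2 had an SD of 0.10, so nothing is read from its nearest profiles, ORA47, AT1G32220 and AT1G22690. These values over 7 arrays are descriptions and carry no p.

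Other UGT genes were measured on the same arrays. Of 40 outside the UGT73 group that were matched by symbol, 2 rose and 0 fell in limma. Over all tested probe sets 1.03% were called higher and 1.33% in either direction. The median difference of the 40 between SA and control arrays was 0.08, against 1.90 for the UGT73 genes and -0.03 for all tested probe sets. The 2 were UGT76B1, which glucosylates SA and isoleucic acid (7.36, limma adjusted p = 0.0021), and UGT87A2, known for a role in flowering time (2.32, limma adjusted p = 0.0080). UGT87A2 had 11.49, 11.75, 11.41 and 11.23 with SA at 3, 6, 12 and 24 h, against 9.18 in untreated leaves and 8.76 and 9.49 with Silwet at 6 h and 12 h. At 24 h UGT76B1 was 5.64 above untreated leaves, UGT87A2 2.05 and UGT73D1 1.85. UGT71B6, which glucosylates abscisic acid, had 1.80 (limma adjusted p = 0.197). Its levels of 8.93, 7.81, 6.86 and 5.86 with SA stepped down by 24 h, as those of UGT73B4 and UGT73B5 did. At 6 h 6 of the 40 were at least 2-fold higher than with Silwet, against 8.65% of all probe sets, and 3 at least 2-fold lower, against 8.68%. At 12 h 4 of 40 were at least 2-fold higher, against 5.98%, and 3 at least 2-fold lower, against 6.01%. Every SA array lay above every control array for 8 of the 40, against 8.67% of all probe sets. For 3 of the 40 every SA array lay below, as for 1272 of all 13513 probe sets. The difference between the groups was not tested.

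**Figure D4:**
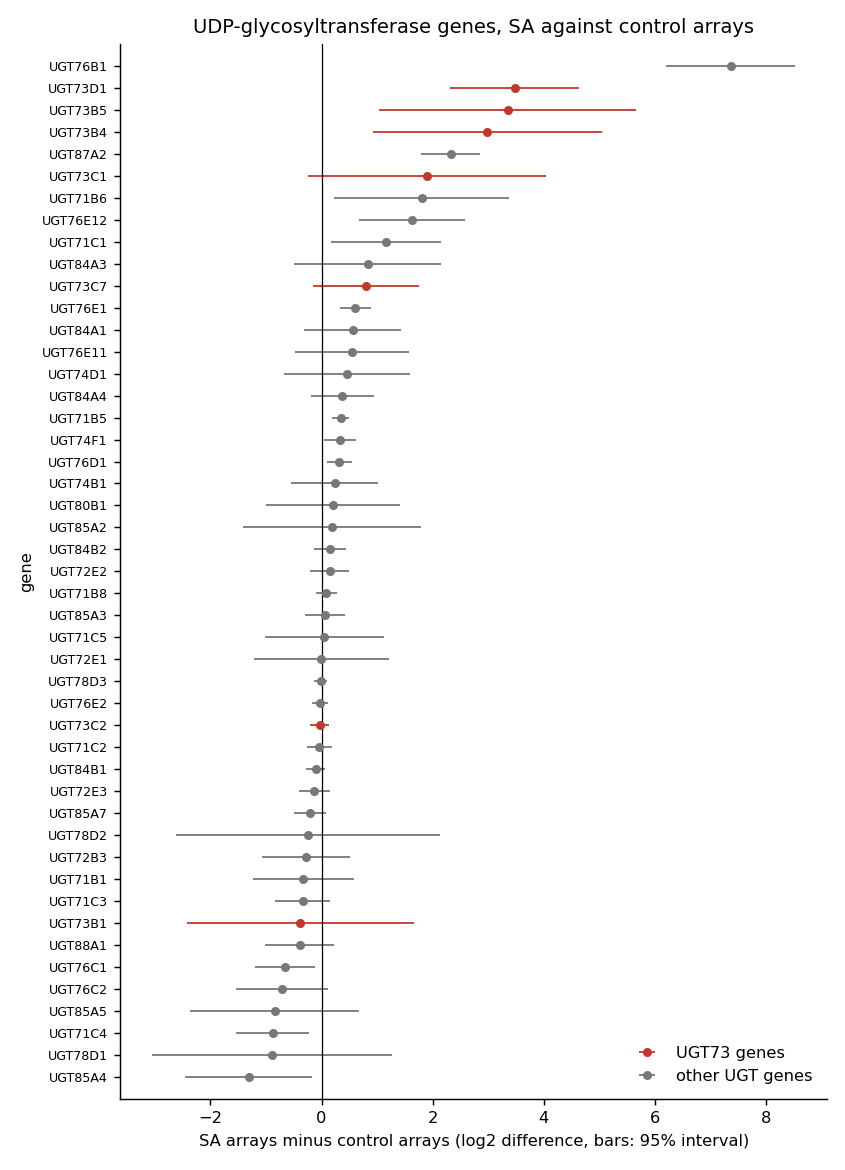
Difference between SA and control arrays (log2, points) with its 95% interval (bars) for the 7 UGT73 genes (red) and the 40 other UGT genes (grey), sorted by size. UGT73D1, UGT73B5 and UGT73B4 follow UGT76B1 at the top, with wider intervals for UGT73B5 and UGT73B4 than for UGT73D1.

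Genes of the wider detoxification pathway were matched by symbol alone, so a listed gene that the annotation gives only by its locus number, or under another symbol, was not counted, and few were matched. Over all tested probe sets 1.33% were called, so nothing is read from a count of 0 in lists this short. Glutathione transferases, which conjugate xenobiotics with glutathione, had 13 matched genes and 0 called in limma (0 higher and 0 lower), with a median of 0.08. The differences largest in size were those of GSTU18 (-1.54), GSTU20 (-1.09) and GSTU25 (0.88), all of the tau class, with limma adjusted p from 0.125 to 0.324. Of 33 other xenobiotic response genes 3 were matched and 0 called. They were ALDH7B4, a stress aldehyde dehydrogenase (1.43, limma adjusted p = 0.0649), AER, an alkenal reductase (0.92), and ALDH3F1, another aldehyde dehydrogenase (-0.76). Of 25 TGA factors and their partners 3 were matched, all glutaredoxins, and 1 rose: GRX480, which binds TGA factors (4.34, limma adjusted p = 0.0351). ROXY1 and ROXY2 had -0.026 and -0.18. Flavonoid synthesis had 2 of 30 matched and 0 called, BAN (-0.063) and DFR (-0.25). UDP-glucose supply had 1 of 30 matched and 0 called, USP (0.13). ABCC and DTX transporters had 0 genes matched by symbol and are not analysed here.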

How the data were processed

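The values deposited by the authors are on a log2 scale. Per the submitters' processing notes they come from RMA and the package affy, without version numbers. RMA subtracts background, normalises the arrays to 1 distribution and summarises the probes of a set, so a change shared by most transcripts would be hidden and dim values are compressed. Array medians over tested probe sets lay between 6.57 and 6.61, and the median difference between the arms was -0.03. Arrays have no read depth, so their number, 7, limits precision.

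Probe sets were named from the platform annotation: 13513 of 22810 name 1 gene, and 13436 symbols were updated to RefSeq (TAIR10.1). The 4 SA arrays were compared with the 3 control arrays by lmFit and eBayes with a trended prior in limma 3.58.1 (R 4.3.3), two-sided. Benjamini-Hochberg adjustment was made over the 13513 probe sets, with a threshold of 0.05. The code of the fit was tested on simulated data with independent normal errors. Such data cannot show how well the fit suits arrays that differ in hour and spray. A difference between single arrays is described by its size, with 2-fold as the limit. Samples are separate pools of plants, with no second array of any condition, and no coordinates are printed because the files name no genome build.

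The members, lists and alternatives were chosen with earlier results of these data known. Named are all members, from each list the called genes and the 3 with the largest differences (where a gene has several probe sets, the brightest), and for each member the 3 nearest profiles. Marker lists for flower and pollen, guard cells and phloem had 0 genes matched by symbol, and epidermis had 1 of 9, TRY; the probe set named FDH is annotated to formate dehydrogenase, not to the epidermal gene of that symbol, and was left out. Alternatives changed the variance prior, the probe sets tested, a filter on dim probe sets, centring, clock time as a block, matched times only, each array left out, and the array that SA at 3 h and 24 h was set against.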

Additional observations from a re-analysis of the deposited data

Results flagged for a closer look

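UGT73B1 differed from Silwet in opposite directions at the matched times, higher with SA at 6 h by 1.13 and lower at 12 h (-2.19), values that are 3.32 apart. Each time has 1 array on each side, and this difference was not tested.

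A probe set annotated to more than 1 UGT73 gene, left out above because it names no single gene, had 11.94, 11.62, 10.59 and 8.99 with SA at 3, 6, 12 and 24 h, against 8.10 in untreated leaves and 6.28 and 9.53 with Silwet at 6 h and 12 h. Its mean was 10.79 ± 1.33 with SA (SD, n = 4) and 7.97 ± 1.63 in control (SD, n = 3), a difference of 2.82 (SE 0.93) that did not pass in limma over the 22746 probe sets that are not the maker's controls (adjusted p = 0.149). SA minus Silwet was 5.34 at 6 h and 1.06 at 12 h. As with UGT73B1, the Silwet array at 12 h was the highest control and the one at 6 h the lowest. The SA array at 24 h lay below that 12 h Silwet array, so the ranges overlapped.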

How the results depend on the processing

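The count of 180 called probe sets became 395 with all probe sets but the maker's controls and 348 with dim ones left out, and lay between 17 (without Silwet 12 h) and 681 (without SA 24 h) when 1 array was left out. Of the UGT73 genes 1 was called, and 0 with clock time as a block, where 168 of all 13513 probe sets were called. With matched times only, 2 were called (UGT73D1 and UGT73B4), where 238 of 13513 were called. With 1 array left out 0 to 3 were called. The count of 3 came without SA 24 h, where 681 of 13513 were called. The difference of UGT73D1 was 3.43 with the clock block, the same estimate as without SA 3 h, and no longer called. It was 3.24 to 3.93 with 1 array left out, where it was called only without SA 24 h. That of UGT73B4 was 3.53 and called (limma adjusted p = 0.0471) with matched times, a fit on 4 arrays, and 2.53 to 3.84 with 1 array left out, where it was called without SA 24 h. UGT73B5 ranged over 2.70 to 4.22 and was likewise called without SA 24 h. SA 24 h is the lowest SA array of UGT73D1, UGT73B4 and UGT73B5, so leaving it out raises their differences by construction. UGT73C1 ranged over 1.22 to 2.51 and UGT73C7 over 0.46 to 1.44, the highest with matched times (limma adjusted p = 0.0567), and neither was called under an alternative that gave it a value. The difference of UGT73D1 with matched times was 4.23 (limma adjusted p = 0.0412). UGT73B1 ranged over -0.97 to 0.23, with positive values without Silwet 12 h (0.18) and without SA 24 h (0.23). UGT73C2 ranged over -0.082 to 0.020, positive without untreated (0.017) and without SA 12 h (0.020). Why these values moved was not tested beyond the arrays left out. The filter on dim probe sets removed UGT73B4, UGT73C1, UGT73C2 and UGT73C7, which have no value there. Centring ended or added no call of a member and turned 2 signs, both of UGT73C2 near 0: 0.011 at 6 h against Silwet and 0.0026 at 3 h against untreated leaves. With the mean of both Silwet arrays in place of untreated leaves, UGT73C1 (0.19) and UGT73C2 (0.046) at 24 h and UGT73C2 at 3 h (0.15) turned positive, and UGT73B5 at 24 h was 0.89 in place of 0.44.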
